A study of Mus musculus with 13 samples.

Results

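Levels of 10 transcripts that mark vascular endothelial cells were examined in interscapular brown adipose tissue (iBAT) of 13 mice by bulk RNA sequencing, with 1 library per mouse. The 10 genes, Pecam1, Cdh5, Kdr, Flt1, Tek, Tie1, Vwf, Emcn, Eng and Cldn5, were chosen by symbol and found among the 42416 Ensembl gene identifiers of the count tables, each under 1 identifier. The 8 libraries labelled iFAXLKO came from mice with both loxP-flanked Axl and a Cre transgene, and the 5 libraries labelled WT came from mice with the same floxed Axl but without Cre, so that the floxed allele is shared by both groups. Per the labels, the mice of both groups were kept at room temperature on a high-fat diet (HFD) and received tamoxifen every 3 weeks. Per the study's methods, the Cre is the tamoxifen-inducible CreERT2 driven by Adipoq, a gene of adipocytes, from a bacterial artificial chromosome, and it is therefore not aimed at endothelial cells. Sex and age of the mice were not used here.

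Brown fat is among the most densely vascularised tissues, since its capillaries deliver oxygen and fuel to the adipocytes and carry away the heat they make. Endothelial cells line these vessels. They are held together by adherens junctions built on VE-cadherin, by tight junctions that contain claudin-5 and by further contacts through PECAM1. They read the growth factors of the surrounding tissue through receptor tyrosine kinases of the VEGF and TIE families. In whole tissue, a lower level of such a transcript can come from fewer endothelial cells or from less RNA per cell, and bulk libraries cannot tell these apart.

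The libraries held between 22.4 and 32.6 M counts, of which 18.33% to 21.31% came from mitochondrially encoded genes. Values are counts per M counts (CPM) of the library, scaled with TMM factors, and log2 fold changes are those of the libraries labelled iFAXLKO over the libraries labelled WT, from edgeR's quasi-likelihood test with Benjamini-Hochberg adjustment over 13360 genes. Axl itself, the targeted gene (chr7:25757273-25788705, GRCm38), was at 33.2 ± 6.17 CPM (SD, n = 8) in the libraries labelled iFAXLKO and at 27.8 ± 3.83 CPM (SD, n = 5) in those labelled WT. Its log2 fold change was 0.25 (edgeR adjusted p = 0.699), and 6 of 8 were above the WT mean. Reads from every exon and every cell type were counted, and their direction goes against the label, so the groups are named by their labels throughout. WT replicate 2 stood apart from the other libraries on the second principal component and had the lowest TMM factor, 0.897 against 0.952 to 1.063, and results that rest on it are also given without it. WT replicate 1 was rich in lymphocyte transcripts, with a summed level of 25.3 CPM over 8 genes against 1.39 to 7.87 CPM in the others. The study calls the WT mice littermate controls and describes cages shared by littermates. Which libraries shared a litter or cage is not given in the sources used here. The tests did not take this into account and treated the libraries as independent, so the p-values hold only if they are.

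Of the 10 endothelial transcripts, 0 passed the adjusted limit of 0.05 in edgeR, a limit passed by 17 of the 13360 genes tested, or 0.127%. At an unadjusted p under 0.05 there was 1 of 10, Tie1, against 7.38% of all genes. The log2 fold changes ran from -0.12 for Kdr to 0.23 for Emcn. They were above 0 for 8 of the 10 with a median of 0.12, while the median over all genes tested was -0.01 and 46.4% of them were above 0. Without WT replicate 2, 6 of the 10 were above 0 with a median of 0.07. In that setting 0 of 10 passed the adjusted limit in edgeR. There 0 of 10 had an unadjusted p under 0.05, against 12% of all genes tested. For each of the 10 the CPM ranges of the groups overlapped, as they did for all but 0.434% of the genes tested.

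**Figure D1:**
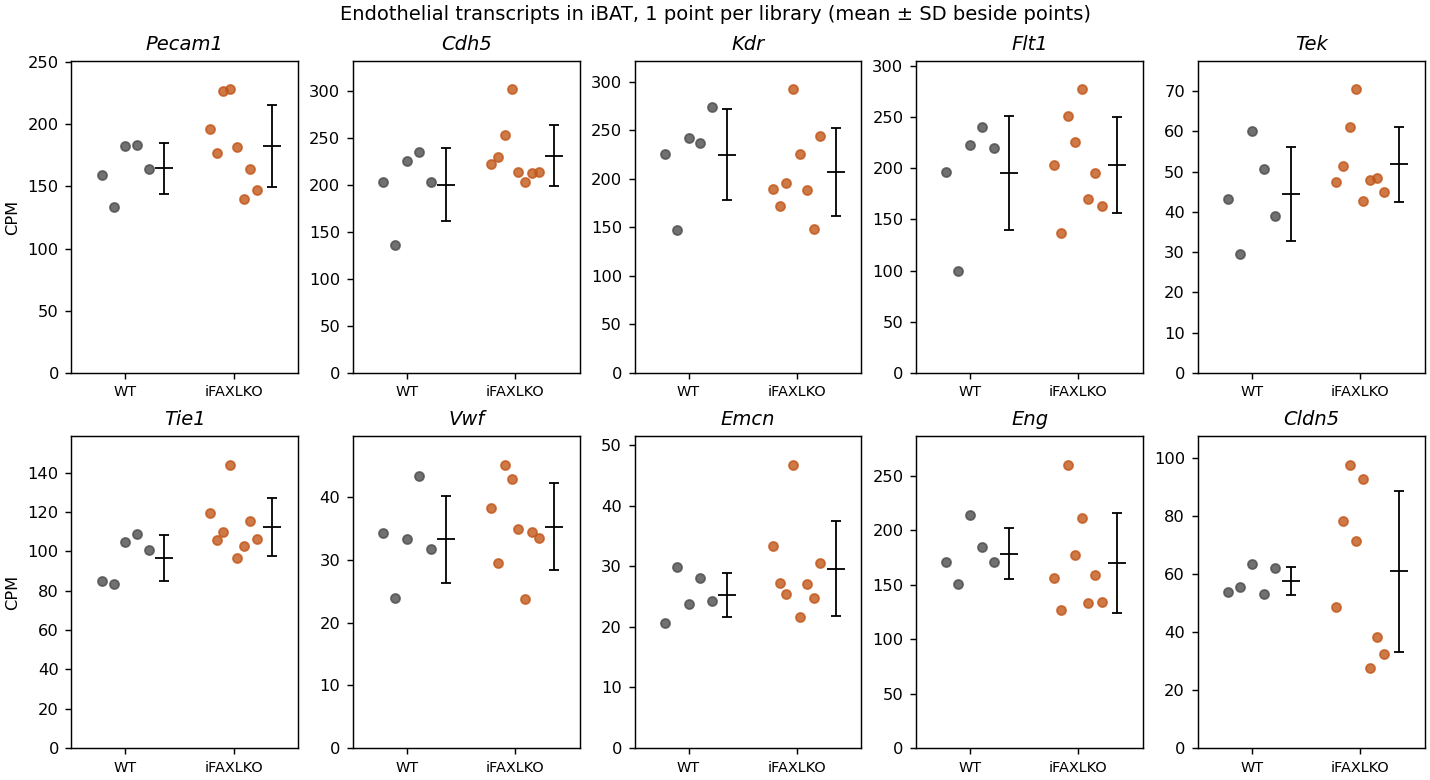
CPM of the 10 endothelial transcripts, 1 panel per gene, with 1 point per library (5 labelled WT in grey, 8 labelled iFAXLKO in orange) and the mean ± SD of each group as a bar with whiskers beside the points. The groups overlap in every panel, and the points of Cldn5 labelled iFAXLKO lie in a set above and a set below the 5 labelled WT.

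The promoters of the 4 receptor tyrosine kinases among the 10 genes are shown because these receptors are compared as pairs, Flt1 with Kdr and Tie1 with Tek, and because endothelial promoters are classically read by ETS factors, whose core motif is GGAA. Each window runs 5′ to 3′ on the strand of its gene, from 250 bases before to 50 bases after the RefSeq start (GRCm38.p6), and capitals mark GGAA and its reverse complement TTCC. The windows are chr5:147725962-147726261 (minus strand) for Flt1, chr5:75978406-75978705 (minus) for Kdr, chr4:118489800-118490099 (minus) for Tie1 and chr4:94739039-94739338 (plus) for Tek.
Flt1: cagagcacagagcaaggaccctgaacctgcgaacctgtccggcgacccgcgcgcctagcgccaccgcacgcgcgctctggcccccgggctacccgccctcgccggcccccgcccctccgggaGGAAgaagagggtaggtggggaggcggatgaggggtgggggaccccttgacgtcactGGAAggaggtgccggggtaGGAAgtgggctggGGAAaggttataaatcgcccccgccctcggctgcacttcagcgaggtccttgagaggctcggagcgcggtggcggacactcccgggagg
Kdr: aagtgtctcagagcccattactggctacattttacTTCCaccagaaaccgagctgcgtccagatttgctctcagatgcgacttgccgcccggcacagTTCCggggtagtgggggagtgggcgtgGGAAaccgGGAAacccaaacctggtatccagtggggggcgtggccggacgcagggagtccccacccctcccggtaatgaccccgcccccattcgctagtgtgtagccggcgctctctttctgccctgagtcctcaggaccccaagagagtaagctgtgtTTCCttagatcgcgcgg
Tie1: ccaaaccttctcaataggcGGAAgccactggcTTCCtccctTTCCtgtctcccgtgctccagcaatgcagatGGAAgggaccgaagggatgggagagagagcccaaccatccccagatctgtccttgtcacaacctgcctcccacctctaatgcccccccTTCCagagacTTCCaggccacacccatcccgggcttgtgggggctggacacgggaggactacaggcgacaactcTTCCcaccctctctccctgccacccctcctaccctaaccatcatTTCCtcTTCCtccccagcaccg
Tek: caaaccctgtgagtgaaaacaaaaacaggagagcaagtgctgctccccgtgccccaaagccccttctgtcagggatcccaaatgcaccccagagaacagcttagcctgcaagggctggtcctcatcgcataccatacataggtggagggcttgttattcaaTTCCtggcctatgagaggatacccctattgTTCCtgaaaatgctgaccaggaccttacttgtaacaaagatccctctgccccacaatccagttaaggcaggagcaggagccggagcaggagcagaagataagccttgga

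The Tie1 window held 9 such sites, that of Kdr 5, of Flt1 4 and of Tek 2, where the median promoter of 32851 in the mouse table held 3 and 96% held at least 1. The RefSeq start of Tie1, at 118489849, lies inside the gene as annotated by GENCODE M21, which begins at 118490061 on the minus strand. Most of the Tie1 window thus lies within that annotated gene. Windows were read for 7 of the 10 genes, and of the other three Emcn had 6 sites, Eng 4 and Cldn5 0. The longer letters AGGAAG, which contain the core, were in 4 of the 7 windows (Emcn, Eng, Flt1 and Tie1) and in 35.4% of all promoters. TATAAA was found in the Flt1 window alone, against 13.6% of all promoters, and AGATAA was found in the Tek window alone, against 11.2%. GC content was 70.7% for Flt1, 60.7% for Kdr, 60.3% for Tie1 and 52.0% for Tek, with 52.7% as the median of all windows. Matches were counted on both strands among 14 motifs searched, of which the shorter ones lie within longer ones, and a match describes letters and not a bound site.

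Per exon length, the 10 transcripts covered a wide range of levels. As RPKM, which divides the CPM by exon length in kilobases, the means over 13 libraries ran in the order Cdh5 (52.1), Eng (42.8), Cldn5 (42.2), Pecam1 (28.2), Kdr (23.7), Tie1 (21.6), Flt1 (14.8), Tek (10.4), Emcn (5.17) and Vwf (2.15). Some neighbours in this order were not separated by their spread. Eng was above Cldn5 in 7 of 13 libraries and Kdr above Tie1 in 7 of 13, whereas Tek was above Emcn and Emcn above Vwf in 13 of 13. Cdh5 exceeded Eng in 10 of 13 libraries. The union of exons of Vwf is 16064 bases long and that of Flt1 13504, the longest of the 10, and all isoforms of a gene are counted together, including the soluble form of the Flt1 product.

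Of the 3 genes of junction proteins, Cdh5 (ENSMUSG00000031871, chr8:104101625-104144511, GRCm38, plus strand) was the highest per exon length and encodes VE-cadherin, the adhesion molecule of endothelial adherens junctions. Its levels in the 5 libraries labelled WT were 202.6, 135.8, 224.7, 234.9 and 202.6 CPM in replicate order. In the libraries labelled iFAXLKO the lowest was 202.4, the median 217.7 and the highest 301.3 CPM. All 8 were above the WT mean, but 6 of them lay within the WT range. The log2 fold change was 0.21 (SE 0.13, 95% interval -0.06 to 0.48, edgeR adjusted p = 0.753), and without WT replicate 2, the lowest of all 13 libraries, it was 0.09. The antisense gene Gm29682 overlaps Cdh5, and reads of both strands cannot be told apart if counting did not use strand.

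Pecam1 (ENSMUSG00000020717, chr11:106654217-106750628, minus strand) encodes PECAM1, also called CD31, an adhesion molecule of endothelial contacts that platelets and some leukocytes carry as well. The WT libraries held 159.0, 133.4, 182.8, 183.5 and 163.9 CPM. Those labelled iFAXLKO ran from 140.2 over a median of 179.6 to 228.1 CPM. Of these 8, 5 were above the WT mean and 3 above the highest WT library, namely replicates 1, 3 and 4. Its log2 fold change was 0.15 (SE 0.13, 95% interval -0.12 to 0.42, edgeR adjusted p = 0.858) and 0.08 without WT replicate 2.

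Cldn5 (ENSMUSG00000041378, chr16:18776847-18778262, plus strand) encodes claudin-5, the main claudin of endothelial tight junctions, and its levels were widely spread in 1 group. The WT libraries lay close together at 54.0, 55.6, 63.6, 53.2 and 62.2 CPM. The libraries labelled iFAXLKO, in replicate order, were at 48.7, 78.5, 97.9, 71.5, 92.9, 27.7, 38.3 and 32.3 CPM. Replicates 2, 3, 4 and 5 were above every WT library and replicates 1, 6, 7 and 8 below every WT library. Not 1 of the 8 thus fell within the range of the 5 WT libraries. The same held for Hhex, with 4 above and 4 below, and for Foxc1 and Aplnr, with 5 above and 3 below. These genes are in the endothelial lists described below, and the share of all genes with this pattern is not given here. The coefficient of variation of Cldn5 was 45.5% in the libraries labelled iFAXLKO and 8.38% in those labelled WT. That of Aplnr was 58.6% and 21.8%. Medians over all genes tested were 12.4% and 15.9%, and these differences in spread were not tested. The Cldn5 means were 61.0 ± 27.8 (SD, n = 8) against 57.7 ± 4.84 CPM (SD, n = 5). For Cldn5 the log2 fold change was 0.08 (SE 0.29, 95% interval -0.55 to 0.71, edgeR adjusted p = 0.981). Its sign turned without replicate 3 (-0.05) or replicate 5 (-0.03) labelled iFAXLKO. The Cldn5 counts were between 724 and 2481 per library, so counting error is small beside these gaps.

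The 2 VEGF receptors of blood vessels showed no shift larger than their spread. Kdr (ENSMUSG00000062960, chr5:75932827-75978458, minus strand) encodes VEGFR2, which carries most of the VEGF-A signal for endothelial growth. It was at 225.2, 147.1, 241.7, 236.8 and 274.1 CPM in the WT libraries and between 147.8 and 292.2 CPM, with a median of 192.8, in those labelled iFAXLKO. Only 3 of the 8 were above the WT mean, and the log2 fold change was -0.12 (SE 0.16, 95% interval -0.46 to 0.22, edgeR adjusted p = 0.928). Leaving out single libraries moved it between -0.24, without WT replicate 2, and -0.04, and it was 0.11 with a fibroblast score in the model.

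Flt1 (ENSMUSG00000029648, chr5:147561604-147726011, minus strand) encodes VEGFR1, which binds VEGF-A tightly, signals weakly and acts largely as a trap for it. WT replicate 2, at 99.9 CPM, was far below the other WT libraries, which were at 195.8, 223.0, 240.1 and 219.2 CPM. The libraries labelled iFAXLKO ran from 137.1 over a median of 199.2 to 276.9 CPM, and 4 of 8 were above the WT mean. The log2 fold change was 0.05 (SE 0.20, 95% interval -0.37 to 0.48, edgeR adjusted p = 0.981), and it turned to -0.11 without WT replicate 2.

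The balance of the 2 receptors was followed as the log2 ratio of Flt1 to Kdr within each library, on CPM. It was -0.20, -0.56, -0.12, 0.02 and -0.32 in the WT libraries and ranged from -0.58 over a median of -0.03 to 0.40 in those labelled iFAXLKO. The means were -0.24 ± 0.22 (SD, n = 5) and -0.04 ± 0.38 (SD, n = 8). The difference of 0.20 did not pass a 2-sided exact permutation test over all assignments of libraries to groups (p = 0.298, or 0.596 adjusted over the 2 receptor pairs, where the smallest p possible is 0.000777), and 5 of 8 libraries labelled iFAXLKO were above the WT mean.

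Tie1 and Tek encode the TIE receptors. Tek (ENSMUSG00000006386, chr4:94739289-94874976, plus strand) makes TIE2, the receptor of the angiopoietins, which keeps vessels quiescent when bound by angiopoietin-1. Its levels were 43.1, 29.5, 60.0, 50.7 and 38.9 CPM in the WT libraries and 42.7 to 70.4 CPM, with a median of 48.3, in those labelled iFAXLKO. Above the WT mean were 7 of the 8, and the groups overlapped. For Tek the log2 fold change was 0.22 (SE 0.16, 95% interval -0.11 to 0.55, edgeR adjusted p = 0.809), and it was 0.10 without WT replicate 2 and 0.37 without WT replicate 3.

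Tie1 (ENSMUSG00000033191, chr4:118471191-118490061, minus strand) makes the related receptor TIE1, which has no firmly bound angiopoietin of its own and modulates TIE2. The WT libraries held 85.1, 83.5, 104.8, 109.1 and 100.9 CPM, and those labelled iFAXLKO 96.7 at the lowest, 108.0 at the median and 144.2 at the highest. By a small margin all 8 were above the WT mean of 96.7 ± 11.7 CPM (SD, n = 5), and 4 were above the highest WT library. The log2 fold change of 0.22 (SE 0.10, 95% interval 0.01 to 0.43) had an unadjusted p of 0.0444 and an edgeR adjusted p of 0.658, and stayed between 0.17 and 0.27 as single libraries were left out. The log2 ratio of Tie1 to Tek was 1.13 ± 0.16 (SD, n = 8) against 1.15 ± 0.28 (SD, n = 5), a difference of -0.02 by the same exact permutation test (p = 0.838, adjusted p = 0.838), and 4 of 8 were above the WT mean.

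The remaining 3 genes encode further endothelial surface and secreted proteins. Eng (ENSMUSG00000026814, chr2:32646595-32682669, plus strand) encodes endoglin, a coreceptor for BMP9 and TGF-β. It was at 170.5, 150.9, 214.5, 185.0 and 171.2 CPM in the WT libraries, and between 126.5 and 260.5 CPM with a median of 157.4 in those labelled iFAXLKO. Only 2 of 8 were above the WT mean and 3 were below the lowest WT library, yet replicate 3 was the highest of all 13. For Eng the log2 fold change was -0.07 (SE 0.16, 95% interval -0.41 to 0.27, edgeR adjusted p = 0.968), and 0.02 without WT replicate 3. Fpgs on the other strand overlaps the Eng locus by 61 bases, and 3 small genes lie within it.

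Emcn (ENSMUSG00000054690, chr3:137341067-137432185, plus strand) encodes endomucin, a sialomucin of veins and capillaries. The WT libraries were at 20.6, 29.8, 23.8, 28.0 and 24.2 CPM and those labelled iFAXLKO at 21.7 to 46.8 CPM with a median of 27.1. WT replicate 2, the lowest library for 6 of the 10 genes, was the highest WT library for Emcn. With 6 of 8 above the WT mean, the log2 fold change was 0.23 (SE 0.16, 95% interval -0.11 to 0.56, edgeR adjusted p = 0.806), and 0.11 without replicate 4 labelled iFAXLKO, the highest library.

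Vwf (ENSMUSG00000001930, chr6:125546774-125686679, plus strand) encodes von Willebrand factor, a clotting protein stored by endothelial cells and megakaryocytes. It was at 34.2, 23.9, 33.3, 43.3 and 31.7 CPM in the WT libraries and at 23.8 to 45.2 CPM with a median of 34.6 in those labelled iFAXLKO. The extremes of both groups were close to each other. The log2 fold change was 0.08 (SE 0.15, 95% interval -0.24 to 0.41, edgeR adjusted p = 0.952) and -0.01 without WT replicate 2.

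**Figure D2:**
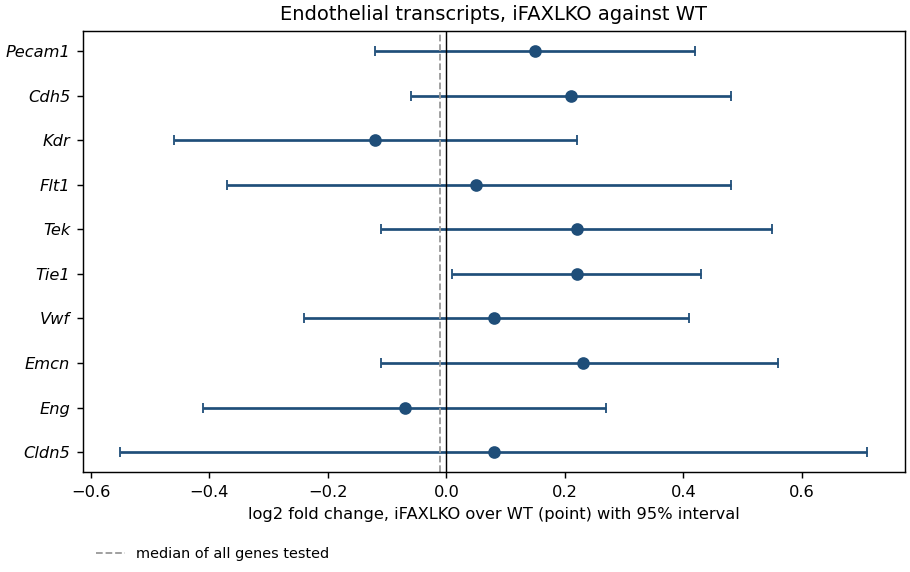
Log2 fold change of the libraries labelled iFAXLKO over those labelled WT (points) with its 95% interval (bars) for the 10 endothelial transcripts, with a solid line at 0 and a dashed line at the median of all genes tested, -0.01. The interval of Tie1, 0.01 to 0.43, lies above 0 before adjustment, the other 9 cross 0, and that of Cldn5 is the widest.

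The spread between mice was larger than the difference between groups for the mean of the 10 genes. This mean log2 CPM was lowest in WT replicate 2, at 6.18, and highest in replicates 4 and 3 labelled iFAXLKO, at 7.00 and 6.89. WT replicate 2 had the lowest value of 6 of the 10 genes, replicate 4 labelled iFAXLKO the highest of 6 and replicate 3 labelled iFAXLKO the highest of 3. The summed level of the 10 ran from 889.3 to 1372.2 CPM in the WT libraries and from 1063.6 to 1600.3 CPM in those labelled iFAXLKO. The group means of the mean log2 CPM were 6.53 and 6.62, a difference of 0.09, beside an SD of 0.23 within groups.

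**Figure D3:**
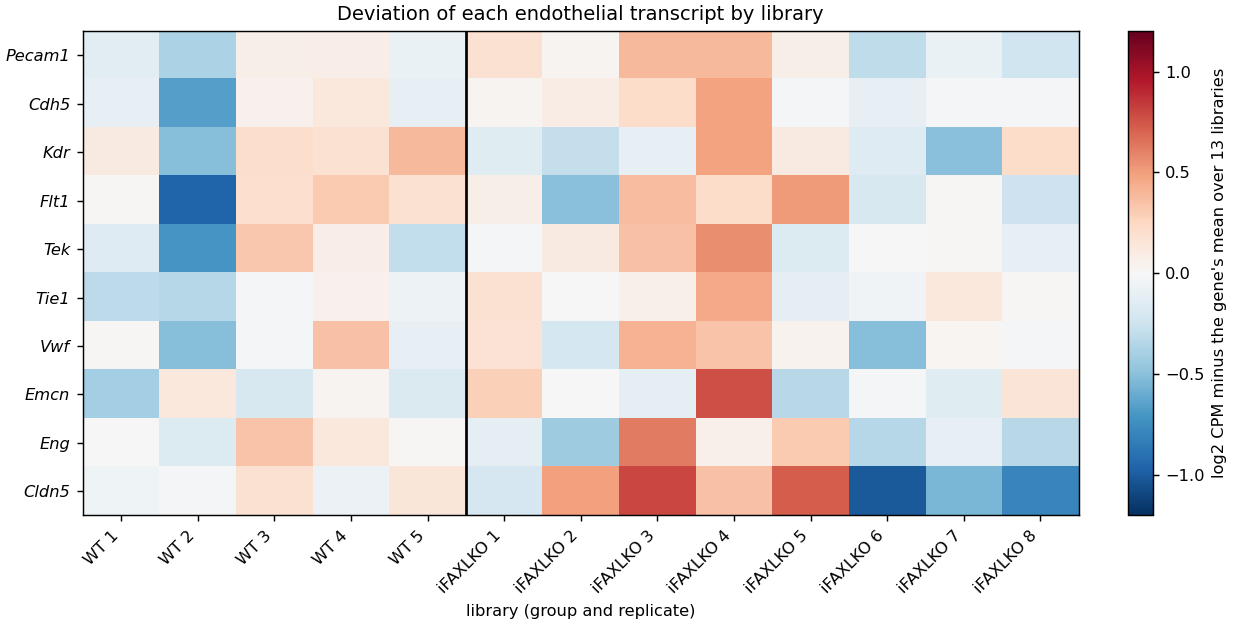
Deviation of each transcript's log2 CPM from its mean over the 13 libraries (colour, red above and blue below), with genes in rows and libraries in columns, the 5 labelled WT to the left of the line. WT replicate 2 is blue in most rows but not for Emcn, replicate 4 labelled iFAXLKO is red in most rows, and Cldn5 is red in replicates 2, 3, 4 and 5 labelled iFAXLKO and blue in their replicates 1, 6, 7 and 8.

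The labels carry a library number, and the libraries were split by it into a lower and an upper range. The split was a choice made here and is not given by the labels. The numbers within the upper range have gaps of similar size to the gap at the split. Between the ranges so chosen, the direction of the group difference changed. The lower range holds WT replicates 1 and 2 and replicates 1, 2, 3 and 4 labelled iFAXLKO, and the upper range the other 3 and 4. In the lower range, the mean log2 CPM of all 10 genes was higher in those labelled iFAXLKO, by 0.12 for Eng to 0.67 for Tek. In the upper range, 8 genes were lower, down to -0.49 for Cldn5, with Tie1 at 0.00 and Emcn at 0.03. Over the 10 genes, the mean difference was 0.43 in the lower range and -0.18 in the upper. Without WT replicate 2 only WT replicate 1 is left in the lower range. The differences then were -0.11 for Kdr, 0.03 for Flt1 and Eng, and 0.17 to 0.64 for the other 7.

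A model with the group, the range and their interaction was added after seeing the data. The change of difference had been seen in these same libraries, so its p-values describe it and give no independent support. The unadjusted p was under 0.05 for 5 of 10 genes, against 7.13% of the genes tested. Several of the 10 genes vary together, as Cdh5 and Tek do (r of 0.93), so the 5 are not separate results. These were Pecam1 (edgeR unadjusted p = 0.00382), Tie1 (0.00969), Cdh5 (0.00973), Tek (0.00996) and Vwf (0.0451). After adjustment edgeR called 0 of the 10 and 0 of all genes (0%), and the adjusted p of the 10 ran from 0.624 to 0.767. The interaction for Pecam1 was -0.66 (SE 0.19) on the log2 scale, upper minus lower range. Without WT replicate 2 the interaction had an unadjusted p under 0.05 for 2 of 10, Pecam1 and Tie1, against 11.5% of genes, and edgeR again called 0 of 10 and 0 of all genes. What the number stands for is not stated, and its part in these differences was not tested beyond this.

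**Figure D4:**
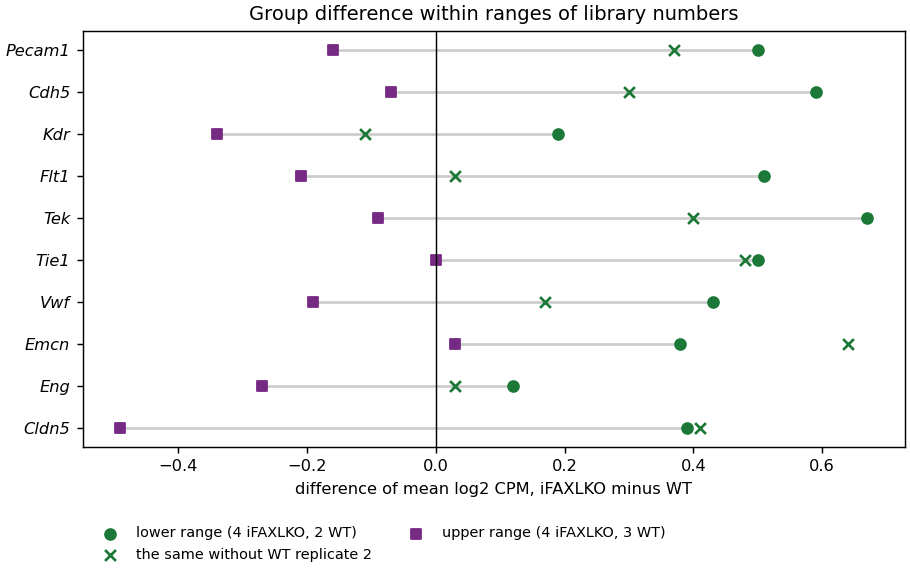
Difference of mean log2 CPM, labelled iFAXLKO minus labelled WT, for each of the 10 transcripts in the lower range of library numbers (circles, 4 labelled iFAXLKO and 2 WT), the same range without WT replicate 2 (crosses) and the upper range (squares, 4 and 3), with a line at 0. The circles lie at 0.12 to 0.67, the crosses at -0.11 to 0.64 and the squares at -0.49 to 0.03.

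The 10 genes did not all vary together across the 13 libraries. The values below are Pearson's r of log2 CPM over 13 libraries, given as descriptions, since the points share the library's depth, its scaling and WT replicate 2. Cdh5 and Tek had the highest r, 0.93, followed by Pecam1 with Vwf (0.85), Pecam1 with Cdh5 (0.83) and Cdh5 with Tie1 (0.81). Pecam1 had an r of 0.95 with the mean of the 10, of which it is a part. The lowest values were those of Emcn, -0.25 with Eng, -0.17 with Flt1 and -0.09 with Cldn5, and its highest r was 0.70, with Tie1. Cldn5 was most like Pecam1 and Eng (0.66 with both) and had 0.03 with Tie1. The VEGF receptors Kdr and Flt1 had an r of 0.59.

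**Figure D5:**
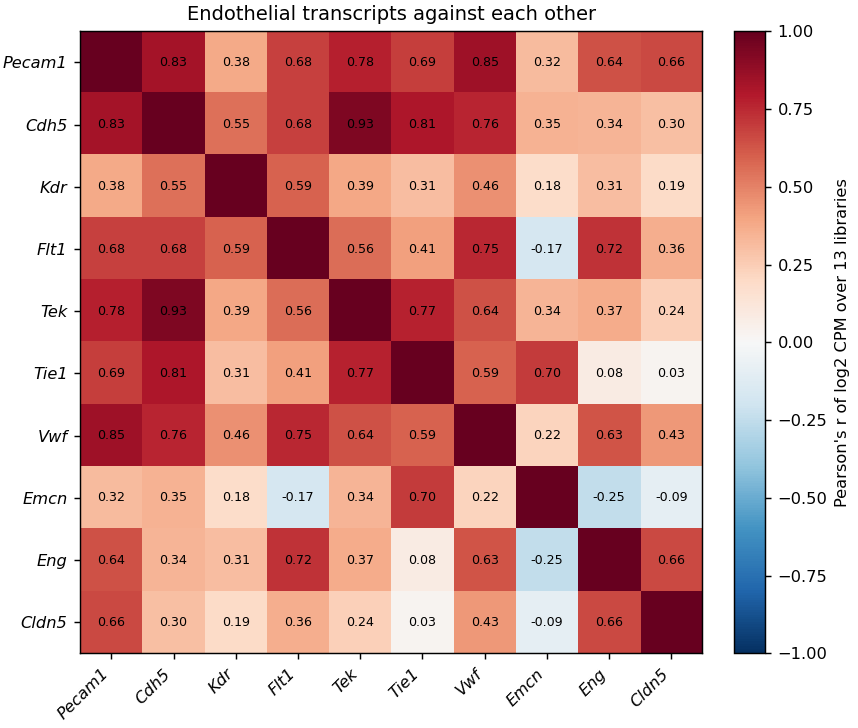
Pearson's r of log2 CPM over 13 libraries for each pair of the 10 endothelial transcripts (colour and printed value). Values run from 0.93 for Cdh5 with Tek to -0.25 for Emcn with Eng, and the row of Emcn is pale except for Tie1.

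Eng and Emcn also differed in their r with marker lists of vessel kinds. The mean log2 CPM of 10 arterial genes had an r of 0.89 with Eng and 0.07 with Emcn over the 13 libraries. That of the 7 venous genes tested, of 8 listed, had an r of 0.62 with Emcn and -0.06 with Eng. A list of 11 capillary genes, 1 of which is Kdr, had an r of 0.84 with Eng. The mean of the 10 endothelial genes had an r of 0.91 with the arterial list and 0.86 with the capillary list. It had 0.39 with the 7 venous genes tested and 0.30 with the 4 lymphatic genes tested.

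The mean of the 10 endothelial genes was also compared with all other genes tested, leaving out the 10 themselves. Highest in r over 13 libraries were Shank3 (0.973), Pan2 (0.942), Efnb2 (0.939), Arap3 (0.938), Ggta1 (0.936), Mir3064 (0.927), Abr (0.922), Btnl9 (0.917), Fli1 (0.907) and Jak3 (0.907). Efnb2, the ligand ephrin-B2 of arterial endothelium, Btnl9 from the capillary list and Fli1, an ETS factor, were in lists of endothelial genes. Mir3064 is a microRNA gene of 67 bases. Whether reads counted there came from the microRNA or from another transcript was not examined. Over all genes tested, with the 10 included, the median r was -0.05, and 0.412% had an r of at least 0.85. Without any 1 library the r of Shank3 stayed at 0.96 or above and that of Jak3 at 0.86 or above.

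Other endothelial genes did not pass the adjusted limit either. Of 20 further endothelial surface and signalling genes, 17 had a log2 fold change above 0, and their median was 0.11. An unadjusted p under 0.05 was found for 2, against 7.38% of all genes tested, and 0 passed the adjusted limit in edgeR. Of these 2, Tspan7, a tetraspanin, was at 62.5 ± 3.47 CPM (SD, n = 8) against 54.2 ± 1.33 CPM (SD, n = 5). All 8 were above the highest WT library, where 0.434% of all genes tested had ranges without overlap. The log2 fold change of Tspan7 was 0.21 (SE 0.06, edgeR adjusted p = 0.407). The other was Cd34, which stromal progenitors carry as well as endothelial cells, at 35.3 ± 12.0 against 23.3 ± 4.85 CPM, with all 8 above the WT mean and a log2 fold change of 0.60 (SE 0.21, edgeR adjusted p = 0.512). Icam2, an adhesion molecule of endothelium, was at -0.26. Their mean log2 CPM had an r of 0.90 with that of the 10 over the 13 libraries.

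Of 16 transcription factors of endothelial cells, 14 were above 0, 0 had an unadjusted p under 0.05 or passed the adjusted limit in edgeR, and the median was 0.14. The 3 with the smallest p were Lyl1 (log2 fold change 0.35), Foxo1 (0.41), which brown adipocytes express too, and Sox17 (0.29). Of the 11 capillary genes 5 were above 0, with 0 past either limit in edgeR and a median of -0.02, among them Lpl (-0.17), lipoprotein lipase, which adipocytes make, Rgcc (0.18) and Aqp1 (0.18), the water channel. Of the 10 arterial genes 6 were above 0, with 0 past either limit in edgeR and a median of 0.05, and the smallest p belonged to Unc5b (-0.24), a netrin receptor, Gja5 (0.15), a connexin, and Sema3g (0.15). Without 1 library these ranged from -0.34 to -0.13, from 0.06 to 0.21 and from 0.06 to 0.22. Of the venous genes 7 of 8 were tested and 6 were above 0, with 0 past either limit in edgeR and a median of 0.11, as for Nr2f2 (0.11), the factor of venous identity.

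Lymphatic transcripts were scarce, with a summed level of 17.2 to 31.9 CPM over the libraries. Of 6 genes 4 could be tested, and Prox1, the factor that defines lymphatic endothelium, was too low. All 4 were above 0, with a median of 0.41. An unadjusted p under 0.05 was found for 2, against 7.38% of all genes tested, and 0 were past the adjusted limit in edgeR. These 2 were Lyve1, a hyaluronan receptor that tissue macrophages also carry (log2 fold change 0.79, SE 0.33, edgeR adjusted p = 0.624), and Pdpn (0.45).

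Ligands and coreceptors of the 10 genes' receptors were tested where they passed the filter, 12 of 15. Of these 6 were above 0, with 0 past either limit in edgeR and a median of 0.02. Vegfa, the ligand of both VEGF receptors, was at 481.1 ± 60.6 CPM (SD, n = 8) against 513.9 ± 73.1 CPM (SD, n = 5), with a log2 fold change of -0.09 (SE 0.11). Vegfb, a ligand of VEGFR1, was at -0.04, and at 0.16 without WT replicate 2. Angpt1, the activating ligand of TIE2, was at 13.2 ± 5.05 against 9.10 ± 1.56 CPM. Above the highest WT library were 5 of 8, and its log2 fold change was 0.54 (SE 0.26, edgeR adjusted p = 0.696). Angpt2, its context-dependent antagonist, was at -0.26 and Vegfc at 0.32. Gdf2 and Bmp10, the circulating ligands of the endoglin complex, had at most 1 count in any library, where a count of 0 allows up to 0.134 CPM.

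Partners of the junction proteins numbered 10 tested of 12. Of these 6 were above 0, with a median of 0.06. An unadjusted p under 0.05 was found for 1, against 7.38% of all genes tested, and 0 passed the adjusted limit in edgeR. The 1 was Jam2, a junctional adhesion molecule, with a log2 fold change of 0.31 (SE 0.13, edgeR adjusted p = 0.621). The next smallest p were those of Ctnna1, which encodes α-catenin (-0.19), and Jup, which encodes plakoglobin (0.18).

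The marker lists of fibroblasts and macrophages had larger medians than the endothelial genes. All 10 fibroblast genes were above 0, with a median of 0.69. At an unadjusted p under 0.05 were 10 of 10, against 7.38% of all genes tested, and 0 were past the adjusted limit in edgeR. Their summed level was 565.7 to 1223.9 CPM in the libraries labelled iFAXLKO against 404.0 to 720.1 CPM in those labelled WT. All 8 macrophage genes were above 0, with a median of 0.41. Of these, 7 had an unadjusted p under 0.05, against the same 7.38%, and 0 were past the adjusted limit in edgeR. Summed, they were at 132.9 to 250.7 against 106.1 to 156.9 CPM. Pericyte and smooth muscle genes were above 0 in 10 of 10, with a median of 0.16, 0 past either limit in edgeR, and an r of 0.73 with the mean of the 10 endothelial genes. Schwann cell genes were above 0 in 6 of 6 (median 0.08), 5 erythroid genes in 5 (median 0.34) and the 2 of 6 platelet genes tested in 2 (median 0.19). The fibroblast and brown adipocyte lists had an r of 0.19 and -0.47 with the mean of the 10.

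Of 10 brown adipocyte genes 9 were below 0, with a median of -0.07. The 1 called was Adipoq, whose regulatory DNA drives the Cre, at 1121.5 ± 131.8 against 709.2 ± 92.8 CPM (log2 fold change 0.66, SE 0.11, edgeR adjusted p = 0.0118). Elovl3, a fatty acid elongase of brown fat, was at 125.2 ± 45.3 against 202.6 ± 25.2 CPM, with all 8 below the WT mean and a log2 fold change of -0.69 (SE 0.21, edgeR adjusted p = 0.474). Skeletal muscle transcripts, which surround the depot, varied from 2.83 to 5233.4 CPM summed in the libraries labelled iFAXLKO and from 21.6 to 3622 in those labelled WT, all 10 were below 0 with a median of -0.27, and their r with the mean of the 10 was -0.14. With a fibroblast score in the model the log2 fold change of Cdh5 was 0.14 and of Tie1 0.14. With a muscle score they were 0.19 and 0.21.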

How the data were processed

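Per the labels, polyadenylated RNA of iBAT was made into TruSeq libraries, whereas the study's methods describe depletion of ribosomal RNA. The authors deposited unnormalised counts of reads, given as whole numbers for each Ensembl gene. The submitters' processing notes name bcl2fastq 2.20, fastp 0.20.0, STAR 2.7.4a, DESeq2 and GRCm38.p6, the study's methods Trim Galore and hisat2. How reads were counted, and whether strand was used, is not given in the sources used here. Symbols came from a gene name table, positions (counted from 1) and exon lengths from GENCODE M21 (GRCm38), and promoters from RefSeq (GRCm38.p6).

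The 13360 genes above 1 CPM in 5 or more libraries were tested. Groups followed the labels. Counts were tested with edgeR 4.0.16 (TMM, robust quasi-likelihood, 2-sided, R 4.3.3). The SE is the log2 fold change divided by the square root of F, and a prior count of 2 entered log2 CPM. The code was tested on simulated data. Depth was 22.4 to 32.6 M counts, and 3 counts, the limit that a count of 0 allows, were 0.092 to 0.134 CPM, covering counting error only. Within groups, no pair of libraries agreed within sampling noise. Alternatives used DESeq2 1.42.0, limma 3.58.1 (voom), other scalings and filters, covariates and libraries left out. The interaction with library number range, the endothelial score covariate, the joint removal of WT replicates 1 and 2 and the gene overlaps were added after seeing the data.

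The 10 genes and all lists were chosen with earlier results of these data known. Named were the 10 genes, Axl, and ligands and coreceptors. From each other list came up to 3 genes with the smallest p and any called gene. The 10 other genes most like the mean of the 10 were named too. Hhex, Foxc1 and Aplnr were named for their position around the WT range. Ccl21a has 2 identifiers and was not used. In the lymphocyte list (8 genes) 0 passed the filter.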

Additional observations from a re-analysis of the deposited data

Results flagged for a closer look

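Over 26 sets of libraries (the 10 genes, the 2 receptor ratios and the mean of the 10, each in 2 groups), 2 held a library far from the rest of its group, where chance gives about 1 in 20. Both were WT replicate 2. Its Cdh5 level was 7.09 on the log2 CPM scale, with the other 4 WT libraries between 7.66 and 7.88. Its Flt1 level was 6.64, with the others between 7.61 and 7.91.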

How the results depend on the processing

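No member passed the adjusted limit under any of the 28 alternatives with a test (lowest adjusted p 0.269), so 0 of 10 held throughout, and leaving out 1 library left 0. Of the 280 member values, 20 changed sign. The number of genes called was 17, and 67 with DESeq2, 7 among protein-coding genes alone, 8 with a fibroblast score and 14 to 19 without 1 library. The replicate block over 5 shared numbers called 7 genes. Deviations of same-numbered samples from their group means had an r of 0.39, 0.42, 0.19, 0.18 and -0.61. For replicates 2 and 3 alone was the same number the best match. Whether the numbers pair the mice cannot be told from these values. Under the block Eng was 0.03 and Vegfb 0.03, the ratio of Flt1 to Kdr differed by 0.25 and that of Tie1 to Tek by -0.07.

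The median log2 fold change of the 10, 0.12, was 0.06 to 0.20 without 1 library, 0.46 within the lower range of library numbers and -0.18 within the upper. In the upper range, Pecam1 was -0.16, Cdh5 -0.07, Flt1 -0.21, Tek -0.09, Vwf -0.19 and Cldn5 -0.49. In the lower range, Kdr was 0.19 and Eng 0.12. Signs turned with limma-voom for Flt1 (-0.14), Vwf (-0.04), Cldn5 (-0.02) and Vegfb (0.14). With a fibroblast score they turned for Kdr (0.11), Eng (0.02), Cldn5 (-0.09), Axl (-0.21), Cd34 (-0.19), Lyl1 (-0.03), Vegfa (0.01) and Angpt2 (0.05). With a score of other endothelial genes, Pecam1 was -0.03, Flt1 -0.20, Vwf -0.14, Cldn5 -0.19, Sema3g -0.07 and Vegfb 0.08. With library number as a covariate Cldn5 was -0.03, and with other library sizes Vegfb 0.02. Without WT replicates 1 and 2 together, Flt1 was -0.17, Vwf -0.03 and Vegfb 0.15. Without 1 library, Flt1 ranged from -0.11 to 0.14, Vwf from -0.01 to 0.20, Eng from -0.18 to 0.02, Cldn5 from -0.05 to 0.19 and Vegfb from -0.09 to 0.16. The Flt1 to Kdr difference ranged from 0.12 to 0.28 and that of Tie1 to Tek from -0.11 to 0.06, with 0.10 in the upper range. The causes were not tested.

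The members had at least 549 counts in every library, so counting error was small beside the spread between mice, which gave SEs of 0.10 to 0.29 on the log2 scale. Without WT replicate 2, 2 of 10 in place of 5 of 10 had an unadjusted p under 0.05 for the interaction with the range of library numbers.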
